A study of Mus musculus with 20 samples.

Results

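Cck wells are the neurons of the mouse habenula at postnatal day 7 (P7) in which at least 3 counts of Cck, the gene of the cholecystokinin precursor, were found. They numbered 101 of the 620 wells kept on the 2 P7 plates, 49 of 326 on plate 1 and 52 of 294 on plate 2. The whole series held 4811 kept wells on 20 plates. A well was kept with at least 1000 counts outside spike-in and mitochondrial rows, at least 500 genes and at most 20% mitochondrial counts. The wells were thus chosen by their Cck count, and Calb2, Pde11a, Gad1, Wif1 and Unc13c were known to mark them, so the P7 values of these 6 genes are a description with no test. The comparison is with the other kept wells of the same plates, and mainly with the 458 of them (242 and 216) that were neuron-type, meaning at least 10 summed counts of 10 neuronal genes and more of these than of genes of nonneuronal cells.

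The habenula is a small epithalamic structure that relays forebrain input to the midbrain, and its medial part projects to the interpeduncular nucleus. In the medial habenula, neurons of the dorsal region make substance P, encoded by Tac1, and those of the ventral region make acetylcholine. Cholecystokinin is cut from its precursor, sulfated and amidated, and the short peptides are released from dense-core vesicles and act on the G protein-coupled receptors encoded by Cckar and Cckbr.

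The series measured single cells of the developing mouse habenula by CEL-Seq2, in which each cell has its own well of a 384-well plate and its RNA is tagged with a well barcode and a unique molecular identifier (UMI), so that a count is a molecule and not a read. Both P7 plates, the 2 P4 plates, the 2 adult plates and the 9 plates of embryonic days 11 to 18 carried the Brn3a-tauLacZ line, a reporter at Brn3a (Pou4f1), a transcription factor of habenula neurons. The 5 further plates of embryonic day 18 came from C57BL/6 mice. Left and right habenula were kept apart on some of these 5 plates. The labels of the plates name neither animals nor zygosity nor sorting, so every p-value rests only on spread between plates, which may be technical. In the fits of the P7 plates alone, that spread was taken almost wholly from all genes together, not from each gene.

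Median depth in Cck wells was 23551 counts on plate 1 and 25685 on plate 2. The other neuron-type wells had medians of 22923 and 16894, so on plate 2 the Cck wells were deeper. Over all 101 wells there were 2505004 counts, and a gene with 0 counts there is below 1.20 CPM (counts per 1000000 counts), which covers counting error only. The plates also differed in their cells. On plate 1, 7 Cck wells held Xist without Y-linked transcripts, 32 the reverse and 9 both, while all 52 Cck wells of plate 2 held Y-linked transcripts only. On plate 1 no Cck well lay among the 39 kept wells at positions 337 to 384, where a count of 0 allows a share of up to 7.69%, and plate 2 had 8 there. Whether these features bear on the results was not tested.

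The labels were checked against marker genes. All 101 Cck wells were neuron-type, and all 10 genes of the medial habenula list were detected in them. Summed over that list the level was 8315 and 8110 CPM on plates 1 and 2, against 7922 and 7914 in other neuron-type wells. A single gene, Nwd2, made up 4963 and 5094 CPM of it, and the median log2 fold change over the list was -0.99 against other neuron-type wells. Tac2, the neurokinin B gene and a medial habenula marker, stood at 1513 and 1084 CPM in Cck wells. Genes of nonneuronal cells were low beside nonneuronal wells: the 8 astrocyte genes summed to 72.4 and 76.1 CPM, against 3839 and 2702 there, and the 6 endothelial genes to 6.43 and 7.93 CPM against 931 and 1434. In other neuron-type wells the astrocyte sum was lower than in Cck wells, at 51.4 and 54.5 CPM. In the comparison with those wells described below, 1 of 3 tested astrocyte genes was called higher, Slc1a2, a glutamate transporter, at 29.8 and 54.7 CPM against 18.7 and 18.2 CPM (edgeR adjusted p = 4.44e-05, and 0.064 in the fit of 6 plates). Of 2 tested genes of the oligodendrocyte lineage 1 was called higher, Mbp, myelin basic protein, at 18.5 and 16.6 CPM against 5.73 and 3.77 CPM (adjusted p = 1.44e-04 and 0.011). The part of such RNA in other results was not tested. Over all genes, the comparison with other neuron-type wells called 8.13% higher and 7.44% lower. Of 13 thalamic genes 11 were detected in Cck wells, with summed levels of 1011 and 1261 CPM against 1756 and 1899 CPM in other neuron-type wells. Of the 15 genes of GABA neurons 10 were at 0 in Cck wells, and the list summed to 295 and 369 CPM against 124 and 135 CPM in other neuron-type wells. These sums rest on single genes. Without the chosen marker Gad1 they were 24.9 and 42.0 CPM against 83.4 and 110 CPM, and without Sst as well 20.1 and 19.8 CPM against 3.93 and 3.54 CPM. Of 3 tested genes of the list, Gad2 was called higher and Sst lower, and the other, the chosen marker Gad1, is described with no test. Gad2, at 3.603 and 1.89 CPM in other neuron-type wells, passed the filter on low counts only through the Cck wells, which fixed its direction. Among those at 0 were Slc32a1, the vesicular GABA transporter, and the Dlx2, Dlx5 and Lhx6 factors of forebrain interneurons. A Cck count was also found in 5.71% (2 of 35) and 19.2% (5 of 26) of nonneuronal wells (median depths 10782 and 2696 counts), against 20.2% and 19.0% of other neuron-type wells. Of the 5 on plate 2, a pair of shallow wells with 1072 and 1584 counts held 2 Cck counts each, with 5 and 9 counts of Calb2 and 2 and 3 of Tac1. The shares differed on plate 1 and were close on plate 2. Nonneuronal wells here are all kept wells that were not neuron-type, so shallow neurons may be among them.

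Cck lies on the minus strand at chr9:121489824-121495694 (mm10). The 250 bases before its start are shown because Cck defines these neurons. The sequence is RefSeq's (GRCm38.p6) at chr9:121495695-121495944, written 5′ to 3′ on the minus strand, with CACGTG, the palindromic E-box, and TGCGTCA, a variant of the cAMP response element, in capitals.

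Cck promoter: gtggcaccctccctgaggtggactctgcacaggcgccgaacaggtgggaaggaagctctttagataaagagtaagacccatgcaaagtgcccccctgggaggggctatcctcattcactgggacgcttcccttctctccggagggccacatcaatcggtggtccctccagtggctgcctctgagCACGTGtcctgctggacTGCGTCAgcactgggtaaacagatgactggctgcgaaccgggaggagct

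Both motifs were chosen after the sequence was seen and were searched on both strands in all 32851 promoters of 250 bases, of which 6.02% held CACGTG, 1.75% held TGCGTCA and 0.1735% held both. Tac1, on the plus strand with its window at chr6:7554811-7555060, held both. Wif1 (chr10:121033754-121034003) held CACGTG only, and the windows of Pde11a, Gad1, Unc13c, Tenm3 and Adcyap1 held neither. Calb2 had no entry. Of these windows 182 bases for Tac1 and 44 for Wif1 lay inside the GENCODE model of the gene itself, as did all 250 for Gad1 and Tenm3 and 151 for the second start of Adcyap1. A match is a description of the letters and not a binding site.

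Among the wells chosen, Cck ranged from 3 to 26 counts on plate 1 with a median of 9.01, and from 3 to 23 on plate 2 with a median of 7.51. On plate 1, 10 wells held 3 or 4 counts, 15 held 5 to 9 and 24 held 10 or more. The numbers on plate 2 were 15, 17 and 20, so most Cck wells lay above the threshold by some counts. Summed over wells, Cck was at 409 and 347 CPM, against 10.6 and 11.6 in the other neuron-type wells. Just outside the threshold, 16 and 10 wells had 2 counts, and just inside it 3 and 12 wells had 3. Calb2 was at 808 and 1673 CPM in the wells with 2 counts and at 659 and 1065 CPM in those with 3. Tac1 was at 215 and 481 CPM with 2 counts and at 423 and 489 with 3, so some wells just outside held the same other genes.

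Calb2, the calcium-binding protein calretinin, was found in every Cck well, with 9 to 146 counts on plate 1 and 2 to 113 on plate 2. Its summed level was 1928 and 1661 CPM against 363 and 453 CPM in other neuron-type wells, of which 92.2% and 83.8% also held it. With at least 3 counts required, Calb2 was found in 100% and 98.1% of Cck wells and in 57.8% and 47.9% of all other kept wells. Wif1, a secreted Wnt inhibitor, was found in 98.0% and 96.2% of Cck wells with medians of 10.0 and 9.01 counts, and in 34.3% and 35.2% of other neuron-type wells. Pde11a, a phosphodiesterase that hydrolyses cAMP and cGMP, was found in 91.8% and 75.0% of Cck wells, with medians of 7.01 and 3 counts, against 18.6% and 19.0%. Wif1 and Pde11a were thus found in a larger share of Cck wells. Presence and amount cannot be told apart here, since more RNA per cell also raises detection. Gad1, a glutamate decarboxylase that makes GABA, was found in 55.1% and 42.3% of Cck wells, where it reached 74 and 53 counts, and in 12.4% and 14.4% of other neuron-type wells. Unc13c, a vesicle priming protein, was found in 65.3% and 63.5% with medians of 3 counts and 1 count, against 40.9% and 36.6% of other neuron-type wells. Both were thus at 0 in some of the Cck wells, and Unc13c was common outside them. At least 4 of these 5 genes were found together in 63 of the 101 Cck wells and in 37 of the 458 other neuron-type wells.

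**Figure D1:**
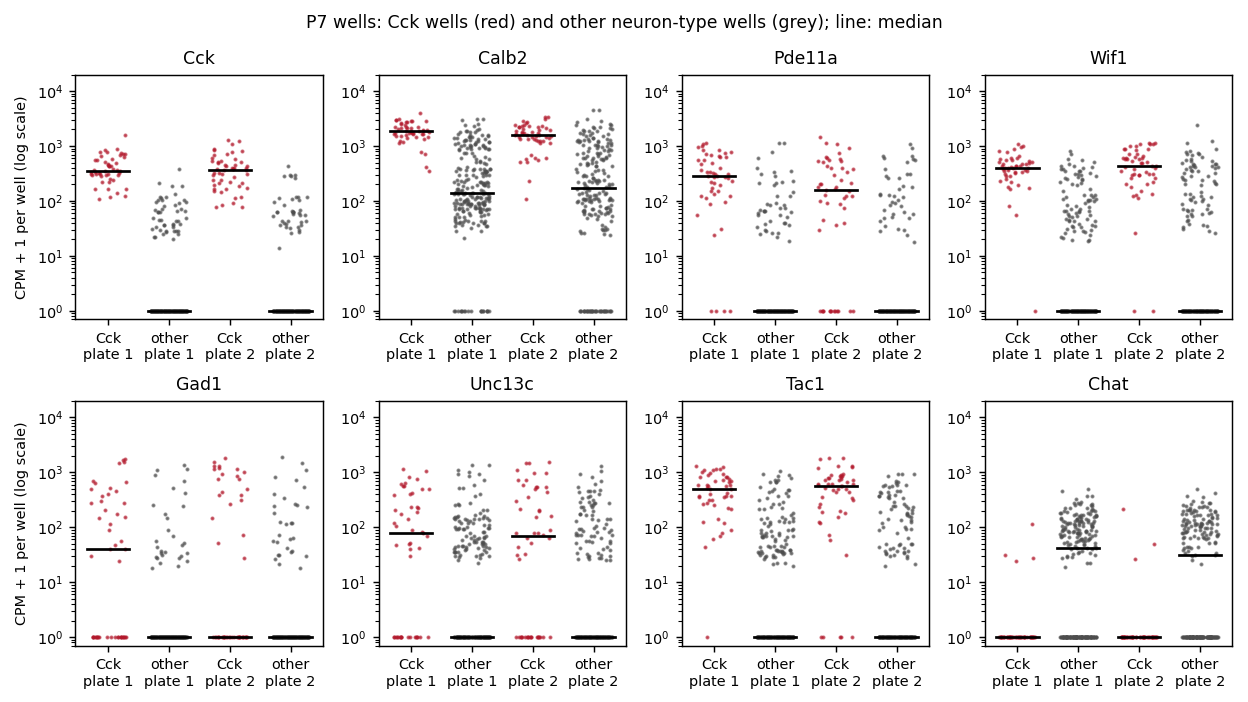
CPM + 1 per well (log axis) of 8 genes in Cck wells (red) and other neuron-type wells (grey) of P7 plates 1 and 2; each point is a well and each line a median. Cck is set apart by the choice of wells, Calb2 and Tac1 are high in nearly every Cck well, Gad1 is at 0 in many of them, and Chat is near 0 in Cck wells.

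Summed per plate and fitted with edgeR's quasi-likelihood test with plate as a block and Benjamini-Hochberg adjustment, 1024 of 12593 genes (8.13%) were higher in Cck wells than in other neuron-type wells and 937 (7.44%) lower. The 1024 include Cck and the 5 chosen markers, and there were 1018 without them. The median log2 fold change of all genes tested was 0.0052. With 4 sums the fit had 1 residual degree of freedom and borrowed its spread from the other genes, so its p-values rest on that shared spread; a fit of the 6 plates of P4, P7 and the adult, added after the data were seen, had 3 residual degrees of freedom and called 337 (2.69%) and 310 (2.48%) of 12506 genes. Of these, 335 and 309 were also called in the fit of P7 plates. Without P7 plate 1 that larger fit called 88 genes in all, and without P7 plate 2 it called 139. Below, fold changes and standard errors are from the fit of P7 plates, and 2 adjusted p-values are given, first from that fit and then from the fit of 6 plates. Against all other kept wells, 7.6% of 12965 genes were higher and 8.84% lower.

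Among the peptide genes, 3 were called higher and 3 lower, the call of Sst resting in part on single wells. Tac1, the precursor of substance P, was found in 98.0% and 90.4% of Cck wells with medians of 9.01 and 11.0 counts, and in 40.1% and 34.7% of other neuron-type wells. Its summed level was 570 and 504 CPM in Cck wells and 73.0 and 70.1 CPM in the other neuron-type wells, without overlap between plates. Tac1 rose by 2.91 ± 0.10 on the log2 scale (adjusted p = 1.11e-171 and 6.84e-09). With at least 3 counts of Tac1, 89.8% and 84.6% of Cck wells were also Tac1 wells, and 58.7% and 55.0% of Tac1 wells were Cck wells. Cck wells were thus mostly a subset of Tac1 wells.

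Adcyap1, the gene of the peptide PACAP, was at 369 and 389 CPM in Cck wells and 57.7 and 85.3 CPM in the others, a rise of 2.43 ± 0.11 (adjusted p = 5.93e-107 and 3.72e-09). Tac2 was at 1513 and 1084 CPM against 608 and 554 CPM and rose by 1.15 ± 0.08 (adjusted p = 5.81e-48 and 0.0016). Both thus rose on both plates. Sst (somatostatin) was called lower, at 4.82 and 22.2 CPM in Cck wells against 79.5 and 106 CPM. A single other well held 206 of 486 Sst counts on plate 1 and another 339 of 451 on plate 2, and without these wells the others were at 45.9 and 26.8 CPM. The difference of Sst on plate 2 thus rested mostly on 1 well. Cartpt (the CART peptide) fell and was at 102 and 84.1 CPM against 189 and 208 CPM. Of the 7 neuropeptide genes tested, 3 were higher and 3 lower in both fits. Among all genes 8.13% and 7.44% were called, and 2.69% and 2.48% in the fit of 6 plates. The median log2 fold change of the list was 0.39 against 0.0052 over all genes. Cck itself is not in the neuropeptide list.

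Of 15 genes for prohormone processing and cholecystokinin receptors 13 were tested, and the receptor genes Cckar and Cckbr were too low to test. Of the 13 tested, 4 were higher and 1 lower (median 0.31), where 8.13% and 7.44% of all genes were called. In the fit of 6 plates 1 was higher and 0 lower, where 2.69% and 2.48% of all genes were called. Against the Tac1 wells described below 0 of 12 were called (median 0.02), near the shares of all genes there (1.03% higher and 1.19% lower). Vgf, a granin-like secretory protein, was at 130 and 224 CPM against 72.0 and 111 CPM and rose by 0.94 ± 0.12 (adjusted p = 1.16e-12 and 0.0064). Pcsk2, a convertase that cuts prohormones, was at 859 and 1018 CPM against 640 and 716 CPM, and Pam, which amidates peptides, was at 595 and 609 CPM against 449 and 471 CPM. Their adjusted p-values were 5.06e-08 and 4.99e-05, and 0.24 and 0.49 in the fit of 6 plates, so both lost the call there. The receptor genes were near 0 in both classes of well. Cckar had 0 counts in Cck wells and was at 0.16 and 0.24 CPM in other neuron-type wells. Cckbr was at 0.80 and 0 CPM against 0 and 0.24 CPM.

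The cholinergic genes were low in Cck wells. Chat, which makes acetylcholine, had at most 1 count in a Cck well of plate 1 and at most 4 on plate 2, and was found in 8.16% and 5.77% of Cck wells against 56.6% and 51.9% of other neuron-type wells. Its summed level was 3.22 and 4.76 CPM against 76.7 and 71.5 CPM, and Chat fell by 4.20 ± 0.31 on the log2 scale (adjusted p = 9.10e-39 and 6.72e-09). Slc18a3, the vesicular acetylcholine transporter, was at 12.1 and 18.2 CPM against 148 and 129 CPM, but lies within Chat on the same strand, so reads of both could be shared. Slc5a7, the choline transporter, was at 29.8 and 42.8 CPM against 254 and 264 CPM. Chat reached 3 counts in 1 of the 101 Cck wells, so the Cck and Chat wells were nearly separate.

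Genes of glutamate and GABA transmission moved in different directions. Slc17a6 (VGLUT2) was at 556 and 528 CPM in Cck wells and 587 and 561 CPM in the others, with a log2 difference of -0.08 ± 0.08 (adjusted p = 0.63 and 0.99). Slc17a7 (VGLUT1) was at 117 and 160 CPM against 282 and 360 CPM and fell by 1.22 ± 0.11 (adjusted p = 2.81e-27 and 0.0014). The lesser transporter Slc17a8 (VGLUT3) was at 33.0 and 39.7 CPM against 8.52 and 8.73 CPM and rose by 2.06 ± 0.31 (adjusted p = 6.03e-10 and 0.0091). Gad2, the second glutamate decarboxylase, was at 19.3 and 19.0 CPM against 3.603 and 1.89 CPM and rose by 2.78 ± 0.46 (adjusted p = 3.39e-08 and 0.0019). Without the highest Cck well of plate 1 Gad2 was at 12.4 CPM there. Gad2 entered the fit of P7 plates only through the Cck wells, so the filter on low counts fixed its direction. Slc32a1 was at 0 in every class of well. Gad1 and Gad2 transcripts thus appeared without the vesicular transporter at this depth. Leaving Gad1 out, the transmitter list had 2 of 11 tested genes higher, Gad2 among them, and 5 lower (median -0.67), against 8.13% and 7.44% of all genes. In the fit of 6 plates 2 of 12 were higher and 4 lower, against 2.69% and 2.48% of all genes.

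Of 40 tested transcription factors of the list 6 rose and 19 fell (median -0.33), where 8.13% and 7.44% of all genes were called. In the fit of 6 plates 3 rose and 12 fell, against 2.69% and 2.48% of all genes. Etv1 was at 135 and 257 CPM in Cck wells against 1270 and 1227 CPM, and fell by 2.70 ± 0.09 (adjusted p = 9.65e-182 and 6.52e-08). Lmo3, a cofactor on the list of ventral medial habenula genes, was at 14.5 and 47.7 CPM against 365 and 353 CPM (adjusted p = 4.19e-128 and 8.59e-07), and at 26.2 CPM on plate 2 without its highest Cck well. Nr4a2, an orphan nuclear receptor of medial habenula, was at 204 and 298 CPM against 889 and 998 CPM and fell by 1.92 ± 0.09. Neurod1 was at 126 and 125 CPM against 401 and 416 CPM, and Tcf4 at 171 and 176 CPM against 536 and 523 CPM; both fell in both fits. Pou4f1, the gene the mouse line reports on, stood at 598 and 594 CPM against 398 and 411 CPM. It rose by 0.56 ± 0.08 (adjusted p = 9.66e-10), which the fit of 6 plates did not call (adjusted p = 0.082). Onecut1 is not in the list and was chosen after its values were seen. This gene, which overlaps Gm20649, was at 141 and 120 CPM against 19.5 and 17.9 CPM (adjusted p = 3.37e-55 and 5.29e-09).

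The lists of the 2 regions of the medial habenula moved apart. Beside Wif1, the 5 tested genes of the dorsal list (Tac1, Adcyap1, Col16a1, Rasd2 and Calb1) were all higher in Cck wells, and Syt15 was too low to test. Calb1, the calcium-binding protein calbindin, was at 285 and 290 CPM against 79.0 and 131 CPM. All 6 genes of the ventral list were lower, with summed levels of 117 and 156 CPM against 953 and 937 CPM. In the fit of 6 plates 6 of 7 dorsal genes, the chosen marker Wif1 among them, were higher and 6 of 6 ventral genes lower. The general medial habenula list had 3 genes higher and 6 lower of 10, and 1 and 5 in the fit of 6 plates. Of 10 lateral habenula genes 4 were higher, Vgf among them, and 3 lower, among them Gpr151, an orphan receptor of habenula neurons, at 141 and 207 CPM against 339 and 369 CPM (it fell by 1.03 ± 0.10, adjusted p = 6.65e-22 and 0.0045). The fit of 6 plates called 4 lateral genes higher and 1 lower. Beside these lists, 8.13% of all genes were higher and 7.44% lower, and 2.69% and 2.48% in the fit of 6 plates.

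**Figure D2:**
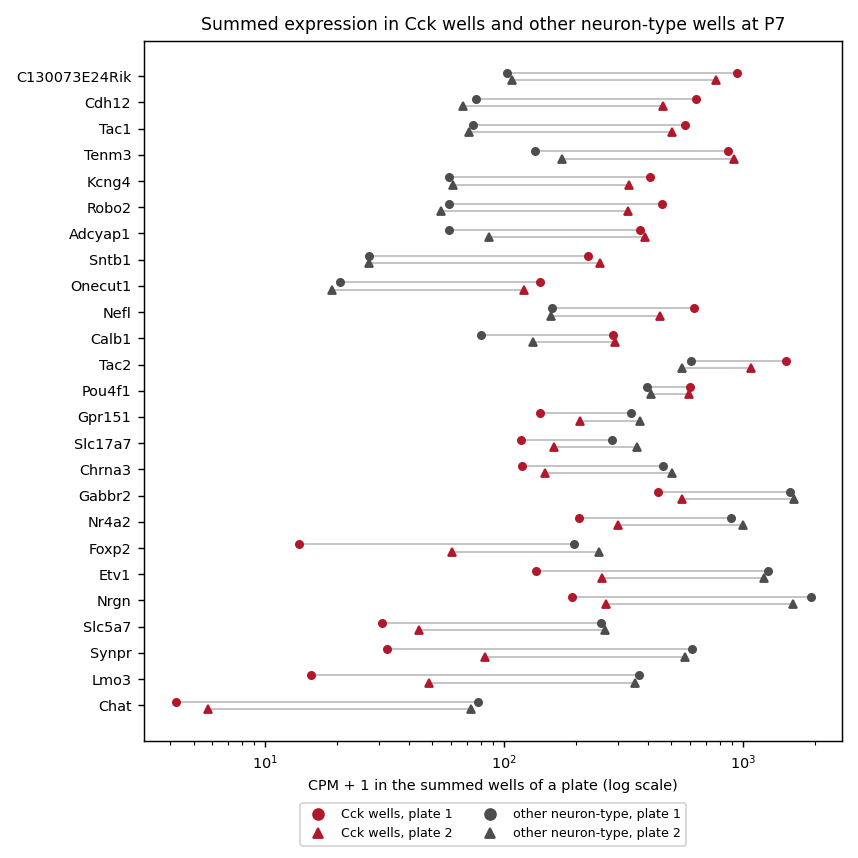
Summed CPM + 1 (log axis) of 25 genes in Cck wells (red) and other neuron-type wells (grey) of plate 1 (circles) and plate 2 (triangles); lines join the classes of a plate. The plates lie close together for some genes, as for Tac1 at 570 and 504 against 73.0 and 70.1 CPM. Chat is at 3.22 and 4.76 against 76.7 and 71.5 CPM. Other genes differ more between plates in Cck wells, as Foxp2 at 12.9 and 59.6, Lmo3 at 14.5 and 47.7 and Synpr at 31.4 and 82.0 CPM.

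Beyond the lists, the rule for named genes took the 15 largest rises and the 10 largest falls. Cck, Pde11a and Gad1 were among the rises, but Cck chose the wells and the other 2 were chosen markers, so their place there is no result. Avil (advillin, an actin-binding protein) was at 75.6 and 72.2 CPM in Cck wells against 4.26 and 3.302 CPM, a rise of 4.26 ± 0.29 (adjusted p = 1.03e-47 and 1.39e-08). Dock5, a guanine nucleotide exchange factor, was at 99.8 and 54.7 CPM against 5.24 and 4.95 CPM, and Chodl (chondrolectin) at 48.3 and 50.0 CPM against 3.11 and 5.19 CPM. All 3 were low outside the Cck wells. Sntb1, a syntrophin of the dystrophin complex, was at 224 and 252 CPM against 26.2 and 26.2 CPM, and the secreted phosphoprotein gene Spp2 at 19.3 and 23.8 CPM against 2.13 and 1.89 CPM. Cdh12 (cadherin 12) was at 634 and 464 CPM against 75.3 and 66.1 CPM, and AC124561.1, which overlaps it on the same strand, at 350 and 270 CPM against 41.3 and 30.9 CPM. Counts of these last 2 genes may be shared.

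Among the largest falls, 3 genes had 0 counts in Cck wells: 5430401H09Rik was at least 6.54-fold lower than in other neuron-type wells, Pxdc1 at least 6.13-fold and Chrm2, the M2 muscarinic receptor, at least 4.28-fold, each against a limit of 3 counts over all Cck wells. Neurod6 had 1 count and was 52.1-fold lower (95% exact counting interval 9.24 to 2065), and Dkk3, a Dickkopf family member, was 25.4-fold lower (4.46 to 1014). Trhr, the thyrotropin-releasing hormone receptor, was 18.2-fold lower (6.16 to 89.1), Sema3c 18.6-fold lower (5.07 to 155) and Gm2990, antisense to Chat, 24.8-fold lower (6.78 to 206), on 2 counts from 1 Cck well. These intervals cover counting error only. Car2 (carbonic anhydrase 2) was at 0.80 and 3.17 CPM against 40.5 and 31.2 CPM and fell by 4.13 ± 0.44 (adjusted p = 8.78e-19 and 9.48e-06).

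Receptors for fast transmitters shifted in both directions. No nicotinic subunit gene was higher and 6 of 8 tested were lower, with a median log2 fold change of -1.43, and 5 were lower in the fit of 6 plates. Against the Tac1 wells described below 1 of 7 was lower (median -0.58), where 1.03% of all genes were higher and 1.19% lower. In the adult 1 of 8 was lower (median -0.19), where 0.872% of all genes were higher and 0.856% lower. Chrna3 was at 117 and 147 CPM against 462 and 502 CPM and fell by 1.87 ± 0.10 (adjusted p = 2.82e-68 and 7.35e-07). Chrnb4, which pairs with Chrna3 in the medial habenula, was at 24.9 and 41.3 CPM against 98.0 and 97.9 CPM, and Chrnb3 and Chrna6 fell too. Of 37 glutamate, GABA and glycine receptor genes 19 were higher and 8 lower (median 0.41), and 9 and 5 in the fit of 6 plates. For both receptor lists, 8.13% of all genes were higher and 7.44% lower, and 2.69% and 2.48% in that fit. Gabbr2, a GABA-B subunit, was at 442 and 554 CPM against 1571 and 1645 CPM and fell by 1.70 ± 0.08 (adjusted p = 2.44e-97 and 3.74e-06). The AMPA receptor gene Gria3 was at 2.41 and 4.76 CPM against 50.8 and 44.4 CPM, and Grm8, a metabotropic glutamate receptor, rose from 79.2 and 71.3 to 217 and 170 CPM.

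Among 16 genes of receptors for peptides, opioids and amines, 8 were higher and 6 lower (median 0.57). In the fit of 6 plates 5 of 17 were higher and 4 lower. The shares of all genes were 8.13% and 7.44%, and 2.69% and 2.48% in the larger fit. Against the Tac1 wells described below 1 of 14 was higher and 5 lower (median 0.23), where 1.03% and 1.19% of all genes were called. In the adult 0 of 17 were called, near the shares of all genes there (0.872% higher and 0.856% lower). Oprm1, the mu opioid receptor, was at 288 and 317 CPM against 123 and 158 CPM and rose by 1.12 ± 0.10 (adjusted p = 3.64e-25 and 0.0013). Chrm3, the M3 muscarinic receptor, was at 303 and 252 CPM against 125 and 121 CPM, and the serotonin receptor gene Htr7 at 53.9 and 53.1 CPM against 17.4 and 12.5 CPM; both rose in both fits. Htr4, another serotonin receptor, fell from 89.0 and 77.9 to 34.6 and 22.2 CPM.

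Of 32 genes of potassium and pacemaker channels 14 rose and 8 fell (median 0.63), and 12 and 3 in the fit of 6 plates, where 8.13% and 7.44% of all genes, and 2.69% and 2.48% in the larger fit, were called. Both directions thus held more calls than over all genes, and the directions were not tested against each other. Kcng4, a modifying subunit of voltage-gated channels, was at 408 and 333 CPM against 57.5 and 60.0 CPM and rose by 2.66 ± 0.11 (adjusted p = 2.39e-120 and 6.45e-08). Kcnc2 (Kv3.2) was at 86.9 and 56.3 CPM against 7.86 and 10.9 CPM (a rise of 2.96 ± 0.24), and Kcnq3, an M-current subunit, at 101 and 121 CPM against 31.1 and 20.5 CPM. Kcnb2 and Kcnk9 rose in both fits as well. Of 24 calcium and sodium channel genes 6 rose and 4 fell (median 0.04), and in the fit of 6 plates 1 rose and 0 fell, which is near the share of all genes called there. Cacna2d1, an auxiliary calcium channel subunit, was at 94.9 and 104 CPM against 27.0 and 23.4 CPM (adjusted p = 2.62e-26 and 1.33e-04).

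Beside Pde11a, 8 of 22 cyclic nucleotide enzyme genes were higher and 3 lower (median 0.26), where 8.13% and 7.44% of all genes were called. In the fit of 6 plates 4 were higher and 3 lower, against 2.69% and 2.48% of all genes. Against the Tac1 wells described below 2 of 19 were higher and 1 lower (median -0.06), where 1.03% and 1.19% of all genes were called. Pde10a was at 170 and 190 CPM against 65.1 and 70.8 CPM and Prkg1, the cGMP-dependent kinase, at 447 and 368 CPM against 177 and 207 CPM. Gucy1a1, a subunit of the nitric oxide receptor guanylate cyclase, was at 486 and 479 CPM against 272 and 276 CPM. All 3 rose in both fits. Pde2a fell from 568 and 554 to 208 and 274 CPM, and Adcy8, an adenylate cyclase, from 282 and 294 to 138 and 135 CPM.

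Beside Calb2, 6 of 17 calcium-binding genes were higher and 5 lower (median -0.20), where 8.13% and 7.44% of all genes were called. In the fit of 6 plates 2 were higher and 3 lower, against 2.69% and 2.48% of all genes. Kcnip4, which binds Kv4 channels, was at 716 and 542 CPM against 198 and 206 CPM, and Necab3 at 36.2 and 45.2 CPM against 239 and 195 CPM. Beside Unc13c, 3 of 25 vesicle genes were higher, a share near that of all genes (8.13%), and 7 lower (median -0.14), and 2 and 2 in the fit of 6 plates. Against the Tac1 wells 0 of 24 were called (median -0.04), near the shares of all genes there (1.03% higher and 1.19% lower). Cplx1 (complexin 1) was at 117 and 139 CPM against 401 and 397 CPM and fell by 1.64 ± 0.11 (adjusted p = 2.09e-50 and 1.16e-06). Rab3b, a vesicle GTPase, was at 187 and 168 CPM against 82.2 and 64.9 CPM. Beside Wif1, 2 of 10 Wnt list genes were higher and 3 lower (median -0.09), where 8.13% and 7.44% of all genes were called. Rspo3, which amplifies Wnt signals, was at 217 and 224 CPM against 101 and 93.0 CPM. Wnt4, a ligand, was at 18.5 and 34.1 CPM against 6.06 and 4.25 CPM. Dkk3, described above, was among the 3 lower. In the fit of 6 plates 2 of 7 Wnt list genes were higher and 1 lower, against 2.69% and 2.48% of all genes.

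Axon guidance and adhesion genes moved in both directions, with 32 of 78 higher and 22 lower (median 0.09), against 8.13% and 7.44% of all genes. In the fit of 6 plates 23 of 79 were higher and 15 lower, against 2.69% and 2.48% of all genes. Tenm3, a teneurin that matches axons with their partners, was at 871 and 917 CPM against 134 and 174 CPM and rose by 2.55 ± 0.09 (adjusted p = 7.53e-175 and 2.27e-09). Its relative Tenm2 was at 1576 and 1664 CPM against 4900 and 4439 CPM and fell by 1.53 ± 0.07 (adjusted p = 8.39e-106 and 6.02e-07). The 2 teneurins thus moved in opposite directions. Robo2, a Slit receptor, was at 457 and 330 CPM against 58.0 and 53.6 CPM and rose by 2.82 ± 0.11 (adjusted p = 1.45e-135 and 3.56e-10). Cntn4 (contactin 4) was at 440 and 428 CPM against 96.6 and 109 CPM and rose by 2.08 ± 0.10 (adjusted p = 2.46e-91 and 2.10e-06).

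Of 21 genes of growth and maturation 9 were higher and 2 lower (median 0.30), where 8.13% and 7.44% of all genes were called. The share lower was thus near that of all genes. In the fit of 6 plates 4 were higher and 2 lower, against 2.69% and 2.48% of all genes. Nrgn (neurogranin, a postsynaptic calmodulin-binding protein) was at 192 and 266 CPM against 1925 and 1618 CPM and fell by 2.95 ± 0.09 (adjusted p = 4.18e-236 and 2.71e-10). The neurofilament gene Nefl was at 622 and 451 CPM against 157 and 156 CPM, and Nefm at 226 and 189 CPM against 83.7 and 74.1 CPM. Sncg (gamma-synuclein) rose from 31.6 and 33.3 to 103 and 115 CPM. Genes that respond to tissue dissociation were lower in 8 of 18 cases and higher in none (median -0.38), where 7.44% of all genes were lower. The fit of 6 plates called 4 lower and 0 higher, where 2.48% of all genes were lower. Fos was at 118 and 264 CPM in Cck wells, 384.8 and 613 CPM in other neuron-type wells and 1392 and 1337 CPM in nonneuronal wells. The part of the dissociation response in the other differences was not tested.

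Several of the most raised transcripts lay side by side on chromosome 8, a stretch chosen after the values were seen. It runs over 2.69 Mb from Tenm3 to the noncoding gene C130073E24Rik (mm10 chr8:48227682-50916997). Of 22 annotated genes 19 were in the table and 11 could be tested. All 11 were higher in Cck wells and 0 lower, in a table where 8.13% were higher. For Gm32842, 4930555F03Rik, Gm45577, Gm45321 and Gm2516 the filter on low counts fixed this direction. They stood at 3.44 CPM or less in other neuron-type wells and entered the test only through the Cck wells. These genes thus add nothing to the count. The fit of 6 plates tested 9 of the 11 and called all 9 higher, among them 4930555F03Rik, Gm45577 and Gm2516. The 11 genes are not independent, and 5 of the 11 lie inside another of them. Gm32842 lies in Tenm3 and Gm45455 in Gm45341 on the same strand, and Gm45577, Gm45697 and Gm2516 on the opposite strand of theirs. Another 3 neither hold nor lie in another. Gm45341 was at 1315 and 1297 CPM against 175 and 190 CPM and rose by 2.84 ± 0.08 (adjusted p = 4.18e-236 and 3.04e-11). Counts of nested genes may be shared, since the strand setting is not known. C130073E24Rik was at 943 and 770 CPM against 101 and 107 CPM and rose by 3.04 ± 0.09 (adjusted p = 1.26e-224 and 7.86e-11), and Gm45697 was at 63.5 and 77.8 CPM against 6.72 and 10.6 CPM. Counts of Gm45341, Tenm3 and C130073E24Rik, the genes of the stretch examined for splicing, were mostly of unspliced RNA. Unspliced molecules made up 100% and 99.9% of the Gm45341 counts in Cck wells, 94.99% and 96.1% of those of Tenm3 and 91.6% and 93.4% of those of C130073E24Rik, against 25.2% and 25.1% over all genes. In the other kept wells the shares were also high, at 100% and 100%, 92.2% and 93.7%, and 92.4% and 89.8% in the same order. Whether the genes of the stretch are separate transcripts was not tested.

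**Figure D3:**
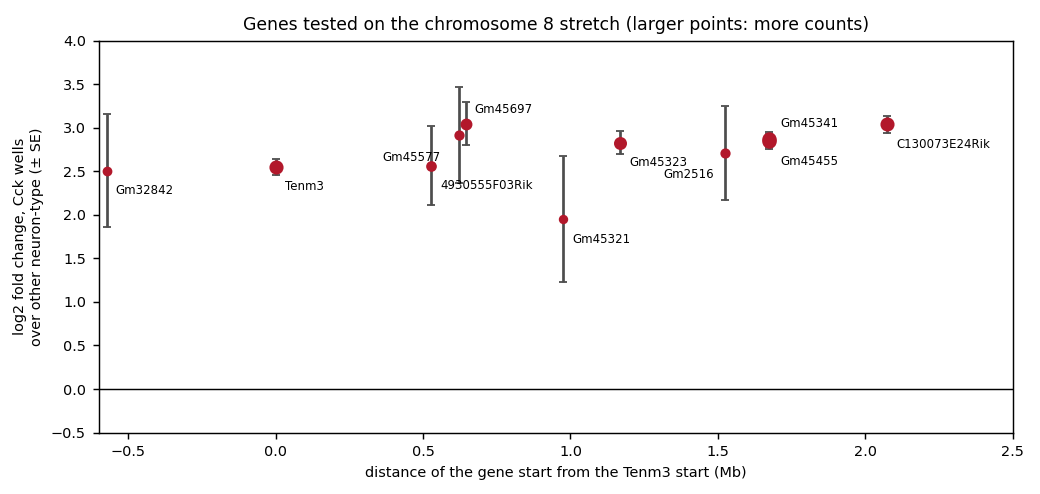
Log2 fold change (± SE, edgeR) of Cck wells over other neuron-type wells at P7 for the 11 genes tested on the stretch of chromosome 8, by distance of the gene start from the start of Tenm3 (Mb); larger points hold more counts in Cck wells. All points lie above 0, and the 4 genes with the most counts, from Tenm3 at 2.55 to C130073E24Rik at 3.04, lie close together. For Gm32842, 4930555F03Rik, Gm45577, Gm45321 and Gm2516 the filter on low counts fixed the direction.

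A closer comparison used the 66 other neuron-type wells with at least 3 counts of Tac1 (31 and 35), and was added after the data were seen. Against them 106 of 10297 genes (1.03%) were higher in Cck wells and 123 (1.19%) lower. In the fit of 6 plates 9 were higher, Cck among them by the choice of wells, and 18 lower, of 9977 genes; without P7 plate 1 it called 5 and without P7 plate 2 it called 4. Tac1 itself differed by 0.46 on the log2 scale (adjusted p = 0.046), and Tac1 counts chose the comparison wells. Of the genes higher in both fits, Gm45341 was at 1315 and 1297 CPM against 438 and 478 CPM (a rise of 1.52 ± 0.12), and Gm45455, Gm45323 and C130073E24Rik from the same stretch rose with it. Avil was at 75.6 and 72.2 CPM against 18.0 and 8.55 CPM, Dock5 at 99.8 and 54.7 CPM against 22.8 and 14.3 CPM, and Lrrtm4, a synaptic adhesion protein, at 806 and 604 CPM against 232 and 316 CPM. Among the genes lower in both fits, Gpr151 was at 141 and 207 CPM against 391 and 656 CPM and fell by 1.56 ± 0.15 (adjusted p = 6.44e-12 and 0.0051). Foxp2 was at 12.9 and 59.6 CPM against 96.1 and 333 CPM, and at 8.26 and 29.2 CPM without the highest Cck well of each plate. Etv1 was at 135 and 257 CPM against 715 and 892 CPM, and Nrgn at 192 and 266 CPM against 597 and 615 CPM. Of the lists, the transcription factors had 0 of 36 genes higher and 8 lower against the Tac1 wells, the axon guidance and adhesion genes 11 and 12 of 74, the potassium and pacemaker channels 4 and 3 of 31 and the transmitter receptors 3 and 4 of 35. Fewer wells and genes entered this comparison, and whether a list differed less from the Tac1 wells than from all other neuron-type wells was not tested. The Cck side held all Cck wells, of which 44 and 44 had at least 3 counts of Tac1. Genes named here outside the lists were chosen after their values were seen.

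The Cck wells were not all alike, and many held no Gad1 count, which at this depth does not show that the cell lacked the transcript. Over both plates 52 Cck wells had 0 Gad1 counts (22 and 30), 11 had 1 or 2 (7 and 4) and 38 had at least 3 (20 and 18). Wells with at least 3 were deeper, with a median of 29183 counts on plate 1 against 21892 for wells at 0. What follows is a description of wells split by their own counts, with no test, and its genes were chosen after their values were seen. Cck chose these wells, so its level is not compared. Calb2 was at 1923 and 1596 CPM in wells with at least 3 Gad1 counts against 1880 and 1776 CPM in wells with 0, and Wif1 at 450 and 508 CPM against 450 and 494 CPM. Calb2 and Wif1 were thus close between the kinds of well. Pde11a was at 412 and 485 CPM with at least 3 Gad1 counts against 346 and 238 CPM at 0, and Tac1 at 742 and 691 CPM against 386 and 373 CPM, so both were higher with Gad1 on both plates.

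Unc13c was at 402 and 686 CPM in Cck wells with Gad1 and at 71.9 and 87.2 CPM in those without, and Gad2 at 35.5 and 51.4 CPM against 5.99 and 0 CPM. Fras1, an extracellular matrix protein, was at 95.9 and 98.6 CPM with Gad1 and at 2.00 and 7.13 CPM without. Nrxn3, a neurexin, was at 782 and 1066 CPM with and at 166 and 146 CPM without. These genes thus varied within the Cck wells. In the other direction, Gpr151 was at 42.6 and 32.1 CPM with Gad1 and 240 and 316 CPM without, and Rxfp2, a relaxin family receptor, at 1.77 and 4.28 CPM with and 122 and 154 CPM without. Calb1 was at 123 and 57.8 CPM with Gad1 and 500 and 469 CPM without, and Etv1 at 33.7 and 32.1 CPM against 254 and 345 CPM. With 20 counts or more in the higher kind, 25 of 4872 genes, among them Gad1 itself by the split, were at least 3-fold higher with Gad1 on both plates and 30 of 5157 at least 3-fold higher without it.

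Across the 101 wells, the CPM of Gad1 and Unc13c had a Spearman rank correlation of 0.67 (0.63 and 0.69 within plates, and 0.52 with each well thinned to 5000 UMIs), and Gad1 and Gpr151 one of -0.57 (-0.41 thinned). These wells share 2 plates, and depth differs among them, so no p is given. Gad1 was not limited to Cck wells, and 11 and 9 other wells held at least 3 counts. There Unc13c was at 767 and 706 CPM, Tac1 at 458 and 522 CPM and Calb2 at 1443 and 1565 CPM. Cck, under the threshold of 3 counts, was also found in 6 of these 11 and 6 of these 9 wells, at 24.4 and 63.4 CPM. These wells thus do not show Gad1 apart from Cck. Of all wells with 3 Gad1 counts, 64.5% and 66.7% were Cck wells.

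**Figure D4:**
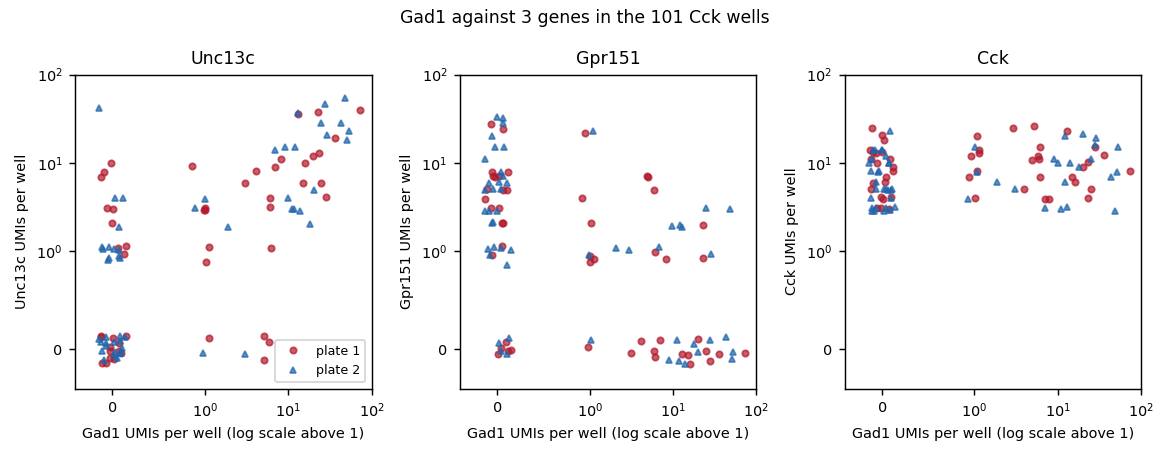
UMIs of Unc13c, Gpr151 and Cck against UMIs of Gad1 in each of the 101 Cck wells (axes linear up to 1 and logarithmic above; circles plate 1, triangles plate 2; points shifted slightly to show overlaps). Unc13c is high where Gad1 is high, Gpr151 is mostly at 0 there, and Cck starts at 3 by the choice of wells.

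The share of Cck wells was followed across the stages. It was 15.0% (95% exact binomial interval 11.3 to 19.4%) and 17.7% (13.5 to 22.5%) on the P7 plates, a mean of 16.4% ± 1.88 (SD, n = 2). At P4 it was 1.39% (4 of 287 wells) and 0.93% (3 of 322), and none of the 9 embryonic Brn3a-tauLacZ plates had a Cck well, with limits of 0.87 to 2.73% and at most 1 Cck count in any well. On the 5 C57BL/6 plates of embryonic day 18 there were 3 such wells, and the highest held 15 counts. In the adult it was 14.3% (8 of 56, 6.38 to 26.2%) and 8.19% (28 of 342, 5.51 to 11.6%). With 2 plates a stage an exact permutation test cannot reach 0.05, and none was used; the P7 shares were above those of P4 on all plates. Adult plate 1 kept few wells, and its median depth was 4408 counts. The order of P7 and the adult depended on the wells counted. Over neuron-type wells the adult shares were 29.4% (5 of 17, 10.3 to 56.0%) and 15.6% (28 of 179, 10.7 to 21.8%), against 16.8% (49 of 291) and 19.4% (52 of 268) at P7, and 1.54% and 1.01% at P4. Fewer cells and less Cck RNA per cell cannot be told apart by this share.

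**Figure D5:**
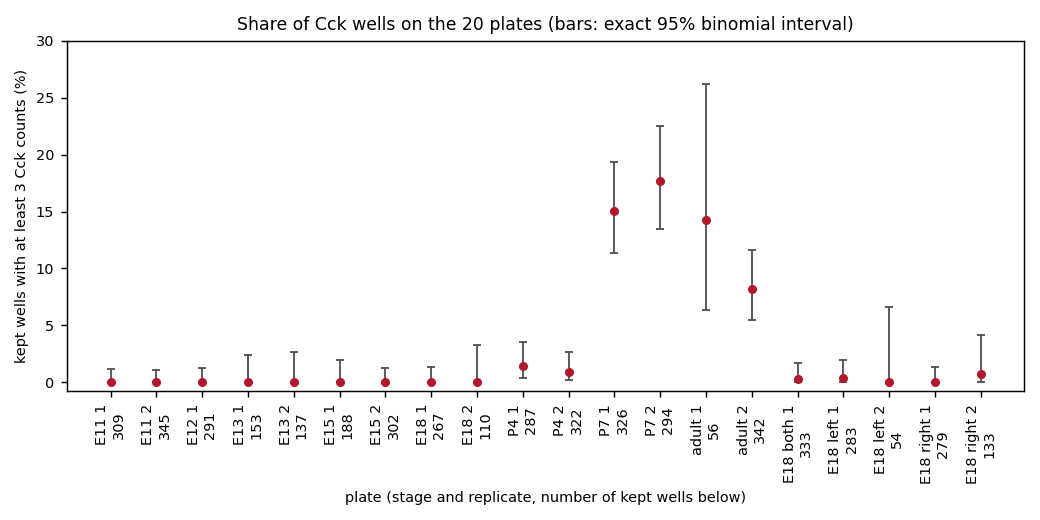
Share of kept wells with at least 3 Cck counts (%) on each of the 20 plates, with 95% exact binomial intervals; the number of kept wells is under each plate. The P7 plates at 15.0 and 17.7% lie above the P4 plates at 1.39 and 0.93%, the adult plates lie at 14.3 and 8.19% of all kept wells, many of which were not neuron-type, and the embryonic plates lie at or near 0.

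Cck wells of P4 and the adult were compared with the other neuron-type wells of their own plates in the fit of 6 plates, which rests on only 4 and 3 Cck wells at P4 and on 8 on adult plate 1, of which 5 were neuron-type and 1 held 65.0% of their counts. At P4, 0.848% of 12506 genes were higher and 0.976% lower, and the median of all genes lay at -0.19 on the log2 scale; in the adult 0.872% were higher and 0.856% lower. The split at P4 was 106 higher and 122 lower with the TMM scaling, 124 and 88 with RLE and 128 and 48 with DESeq2. Without P4 plate 1 or 2 the fit called 94 or 43 genes at P4, and without adult plate 1 or 2 it called 354 or 412 in the adult. Of the chosen markers Calb2 was higher at P4 by 3.18 (1679 and 1336 CPM against 189 and 116 CPM, adjusted p = 4.74e-10) and in the adult by 1.26 (1041 and 2486 CPM against 697 and 676 CPM, adjusted p = 0.0012). Pde11a rose by 3.59 at P4 and by 2.87 in the adult (adjusted p = 1.02e-06 and 3.10e-07), and Wif1 by 3.40 and 2.41. These wells were not those that chose the markers, but the Cck count chose them too. Gad1 rose at P4 by 2.65 (adjusted p = 0.037), while in the adult its difference was 0.67 (adjusted p = 0.91), with 72.3 and 14.1 CPM in Cck wells against 64.1 and 4.90 CPM. Unc13c differed by 0.84 at P4 and -0.44 in the adult (adjusted p = 0.59 and 0.90).

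Tac1 rose in the Cck wells by 3.40 at P4 and by 2.04 in the adult (adjusted p = 4.86e-07 and 1.16e-04). Tenm3 rose by 2.73 and 2.70 and C130073E24Rik by 3.01 and 3.14, and both were called at both stages. Nrgn fell by 2.62 and 1.99, and Synpr (synaptoporin, a vesicle protein), which fell by 3.40 ± 0.12 at P7 (82.0 CPM in Cck wells of plate 2, and 36.9 CPM without the highest well), fell by 3.69 at P4 and by 4.63 in the adult. Of the genes higher at P7, the chosen markers left out, 715 of 976 (73.3%) were higher at P4 and 780 of 976 (79.9%) in the adult, where 40.3% and 49.8% of all genes tested were higher. Of those lower at P7, 806 of 918 (87.8%) were lower at P4 and 750 of 918 (81.7%) in the adult, where 59.7% and 50.2% of all were lower. These contrasts are on separate plates. The difference of P7 from P4 that follows is against all other kept wells, and that from the adult against other neuron-type wells. The P7 contrast differed from the P4 one for 0 genes with edgeR, against all other kept wells, with 662 at an unadjusted p under 0.05 (DESeq2 called 0 as well), but for 65 without adult plate 1, 71 without adult plate 2 and 16 with a Cck threshold of 5. It differed from the adult one for 2 genes, Cntn4 and Rab3b, for 0 with DESeq2, without the plate block or with a Cck threshold of 2, and for 50 without adult plate 1 and 285 without adult plate 2.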

How the data were processed

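Expression was measured in single cells on 384-well plates with CEL-Seq2, with 92 ERCC spike-in rows set aside. The authors deposited expected counts per gene and well for 37994 genes, in total, spliced and unspliced tables. The values fit a correction of UMI counts for collisions among 4096 possible UMIs of 6 bases: undoing it gave whole numbers for 100% of values (tolerance 1e-06), against 46.61% as deposited. Reads were trimmed with Trim Galore and aligned with STAR 2.5.3a to mm10, per the submitters' processing notes. The counting program and strand setting were not given in the sources used here. Genes whose annotations overlap can therefore share counts.

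The members and lists were chosen with earlier results of these data known. Counts of the P7 plates were summed per plate and class of well and rounded, CPM are these sums per 1000000 counts, and genes were tested with edgeR 4.0.16 (filterByExpr, TMM, quasi-likelihood F test, plate as block, Benjamini-Hochberg threshold 0.05; R 4.3.3, limma 3.58.1). Standard errors are the log2 fold change divided by the square root of F. The P4 plates were to share the fit but held under 10 Cck wells each and left it by the rule set for it. Because cells of both classes share a plate, the plate is the pairing unit. Of the P7 well positions 253 were kept on both plates, so barcodes repeat between plates and name positions, not cells. No doublet caller was run; wells above 3 times the median depth of their plate (0 and 4 on the P7 plates) were left out as an alternative.

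Named genes were the chosen markers, the 15 largest rises and 10 largest falls at the threshold with the same direction on both plates and at least 20 counts on each in the higher class, and up to 5 genes a list that passed either P7 comparison. Coordinates are of GENCODE M21 (GRCm38), in which 37938 of 37994 gene identifiers were found, and promoter sequences are RefSeq's of GRCm38.p6. Tested on simulated data for the P7 comparison, edgeR recovered 85 of 100 genes changed 2-fold and 100 of 100 changed 4-fold, with 10 unchanged genes called among 12488. The fit of 6 plates recovered 54 and 97 of 100, with 6 unchanged genes called among 11901. These data had a set coefficient of variation between plates, 0.1 for the fit of P7 plates and 0.15 for that of 6 plates. It was the same for every gene, so whether genes of the real plates share their spread was not tested. Alternatives changed the block, the tool (DESeq2 1.42.0), the scaling, the filter, the table, the depth, the Cck threshold and the plates. Intervals and limits of 3 counts cover counting error only. Tables were made with pandas 2.3.3, numpy 2.4.6 and scipy 1.17.1 under Python 3.11.15, and plots with matplotlib 3.10.9. Some genes that the rule for named genes takes are not reported here.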

Additional observations from a re-analysis of the deposited data

Results flagged for a closer look

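Cntn4 (contactin 4) and Rab3b (a vesicle GTPase) were the genes whose contrast between Cck wells and other neuron-type wells differed between P7 and the adult in the fit of 6 plates (edgeR, interaction term). For Cntn4 the P7 contrast exceeded the adult one by 3.11 on the log2 scale (adjusted p = 0.0026), being 2.08 at P7 and -1.02 in the adult. Its levels in Cck and other neuron-type wells were 440 and 96.6 CPM on P7 plate 1, 428 and 109 CPM on P7 plate 2, 96.3 and 412 CPM on adult plate 1, and 36.9 and 28.9 CPM on adult plate 2. The adult plates thus differed from each other, and without adult plate 1 the difference was 1.78 (adjusted p = 0.0079) and without adult plate 2 it was 4.15 (adjusted p = 2.54e-24).

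For Rab3b the difference was 3.42 (adjusted p = 0.029), with contrasts of 1.27 at P7 and -2.15 in the adult. Its adult levels were 4.81 and 145 CPM on plate 1 and 12.3 and 16.4 CPM on plate 2 in Cck and other neuron-type wells. Without adult plate 1 the difference was 1.74 (adjusted p = 0.45) and without adult plate 2 it was 6.14 (adjusted p = 3.22e-10). DESeq2, the fit without the plate block and a Cck threshold of 2 each called 0 such differences, so neither gene was called there. Adult plate 1 held 8 Cck wells, 5 of them neuron-type, and 12 other neuron-type wells. Of the 207981 counts of these Cck wells 135218 came from 1 well, which held 12 of 20 counts of Cntn4 and the 1 count of Rab3b. Without it Cntn4 was at 110 CPM and Rab3b at 0 in the Cck wells of that plate.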

How the results depend on the processing

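Without the chosen markers, the 96 genes that the rule for named genes took from these plates gave 98 results. Of these genes 2 counted in both comparisons. The alternatives reuse the counts that picked the genes, so a kept direction is no independent support. The 98 results were followed through these alternatives. They kept their direction in all 1897 values computed under alternatives, and 193 of these were no longer past the threshold. Plates were left out in the fit of 6 plates, so these values change both the fit and the plates. With all plates that fit cost 13 of 96 results their call, without P7 plate 1 it cost 63 of 95 and without plate 2 it cost 48 of 94. Of 80 genes that it called against other neuron-type wells, 49 of the 79 still tested lost the call without P7 plate 1 and 34 of 78 without plate 2; a class with 1 plate left is then assumed to vary like the other stages. The planned fit of P7 plates alone became the reported one. Shallow wells limit absence: 55 P7 wells under 5000 UMIs over all genes, mitochondrial ones included, none of them Cck wells (the lowest held 5033 counts so counted, and 4694 without mitochondrial genes), were left out when wells were thinned.

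Without the replicate block, that is without pairing by plate, 1561 genes were called against other kept wells in place of 2131, 1520 against other neuron-type wells in place of 1961, and 85 against Tac1 wells in place of 229. At P4 the fit without the block called 67 (other kept) and 75 (neuron-type) in place of 219 and 228, in the adult 88 in place of 216, and 0 differences between P7 and the adult.

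Further counts are given against other kept wells, other neuron-type wells and Tac1 wells at P7. DESeq2 called 680, 621 and 35, the table of unspliced counts gave 483, 555 and 58, thinning to 5000 UMIs 863, 776 and 47, and the fit of 6 plates 802, 647 and 27. In that fit of 6 plates, leaving out 1 plate gave 131 to 1478, 88 to 1299 and 4 to 132. At P4 against other kept and neuron-type wells the unspliced table gave 136 and 139, thinning 78 and 94, a Cck threshold of 100 CPM 331 and 360, and leaving out 1 plate 67 to 532 and 43 to 445; a Cck threshold of 5 gave 333 against other kept wells. In the adult DESeq2 called 131, unspliced counts alone gave 79, thinning 118, a threshold of 5 gave 352 and of 100 CPM 455, and leaving out 1 plate 148 to 412.

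The 0 differences between P7 and P4 became 6 without a filter, 3 with the spliced and 6 with the unspliced table, 1 with thinning, 16 and 7 with Cck thresholds of 5 and 100 CPM, 9 without the deepest wells and 0 to 71 without 1 plate. The 2 between P7 and the adult became 0 with DESeq2, 36 without a filter, 16 (spliced), 6 (unspliced), 6 with thinning, 4 with wells of at least 10000 counts, 0, 43 and 67 with Cck thresholds of 2, 5 and 100 CPM, 22 without the deepest wells and 0 to 285 without 1 plate. The cause was not tested.

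The share of Cck wells, 16.4%, was 20.5% at a threshold of 2 and 12.3% at 5, 10.4% with thinned wells at 2, and 15.0 to 17.7% without 1 plate. Mean detection in Cck wells and in the other kept wells moved with thinning from 100% and 84.9% to 99.0% and 56.1% for Calb2, from 97.1% and 32.4% to 83.3% and 17.9% for Wif1, from 83.4% and 17.8% to 64.6% and 8.26% for Pde11a, from 64.4% and 35.9% to 41.6% and 16.9% for Unc13c, from 48.7% and 12.8% to 34.7% and 5.91% for Gad1 and from 94.2% and 35.3% to 79.2% and 16.7% for Tac1. With at least 2 UMIs it was 100% and 67.5% for Calb2, 93.2% and 18.8% for Wif1, 49.6% and 20.9% for Unc13c and 38.7% and 4.65% for Gad1.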
